A study of Mus musculus with 28 samples.

Results

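The SOCS family (suppressor of cytokine signalling) comprises Socs1 to Socs7 and Cish, and these 8 genes were taken by symbol from the 24089 genes of an RNA-seq table. The table holds 24 libraries of mouse CD4+ T cells, 3 for each of 8 groups: WT control, WT TGFb, WT IL4 and WT TGFb+IL4, and the same 4 cultures of KO cells. Naïve CD4+ CD62L+ T cells had been purified from spleen and lymph nodes of Tgfbr1 f/f ER-cre+ mice and activated with anti-CD3 and anti-CD28, without added cytokine (control) or with TGF-β1, IL-4 or both. WT mice had received oil and KO mice tamoxifen, so every group carried the floxed Tgfbr1 allele and the inducible Cre, and tamoxifen and the deletion cannot be told apart. DNase-seq was available as 1 library each of WT control, WT TGFb+IL4, KO control and KO TGFb+IL4. The mice were young adults of both sexes, and no source used here says whether the replicates were separate mice. If they were not, the p-values measure only a spread that may be technical.

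Cytokines such as IL-4 and IL-2 signal through receptors that carry Janus kinases, which phosphorylate STAT transcription factors. STAT factors switch on several SOCS genes, and SOCS proteins bind phosphorylated receptors or kinases through an SH2 domain and recruit a ubiquitin ligase through their SOCS box, which closes a feedback loop. In T cells Socs1 restrains interferon-γ and IL-4 signals, Socs3 restrains signals through gp130, and Cish and Socs2 are known targets of STAT5.

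The column headings of the RNA-seq table conflicted with read counts in the supplement, and this bears on every value below. Such counts were at hand for 8 WT libraries. The pattern of genes at zero in those counts was compared with each column over 1991 to 1996 genes. All 8 libraries matched the column at the place of their library number, with at least 99.85% of genes alike against at most 85.89% for the next best column, whereas the headings fitted only 2 of the 8 and were contradicted for 6. The columns were therefore read by position, in the order of the library numbers, as 12 WT and then 12 KO columns in blocks of 4 (control, TGFb, IL4, TGFb+IL4). The 2 readings gave the same group for 8 of the 24 columns, and 4 WT and 12 KO columns could not be checked against counts. With the columns as headed, none of the 30 member calls reported below passed the test. In the reading by headings the 3 WT control columns held 13.4, 77.6 and 6.73 RPKM of Socs2, and in the reading by position 13.4, 11 and 11.2.

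**Figure D1:**
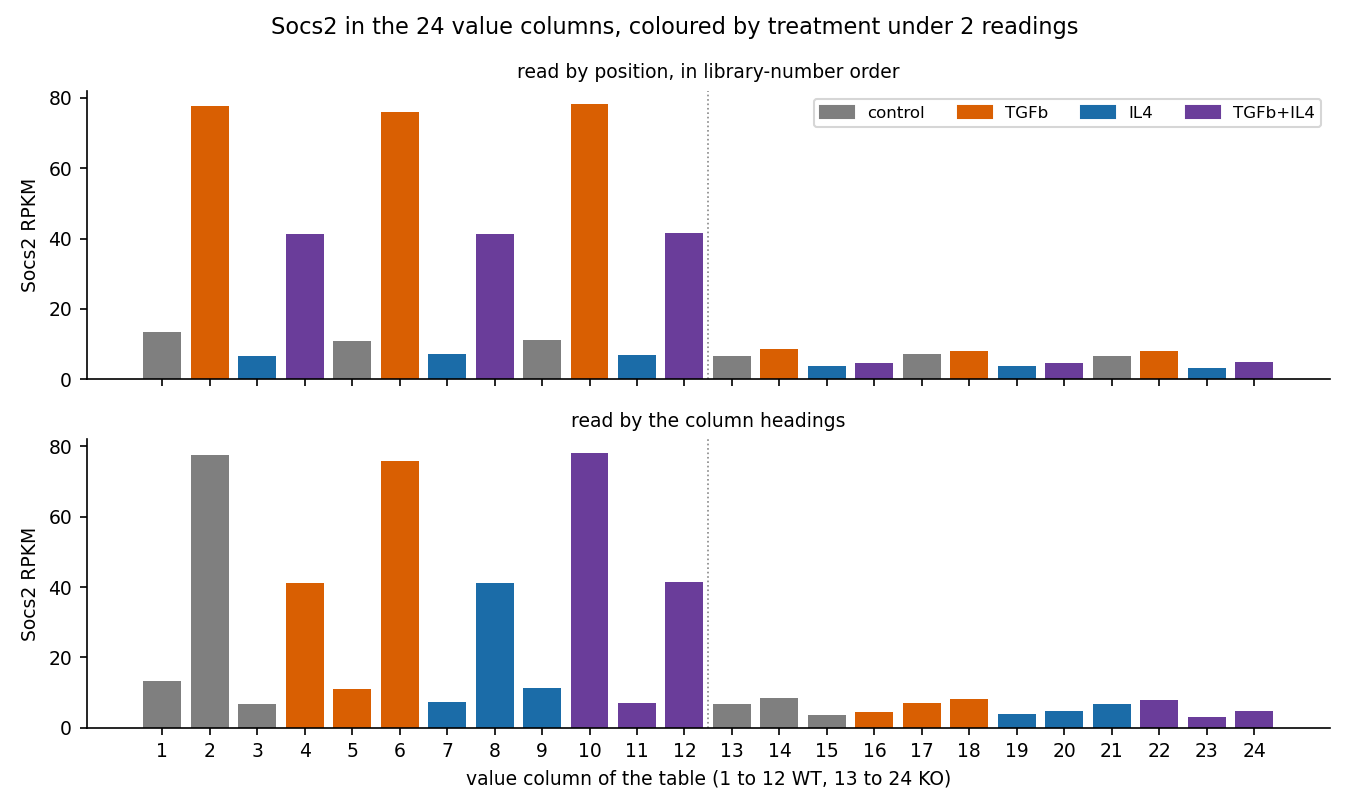
Bars give Socs2 in RPKM (vertical axis) for each of the 24 value columns of the table in file order (horizontal axis), coloured by treatment under the reading by position (top) and under the column headings (bottom). By position the 3 WT TGFb columns hold 76 to 78.2 RPKM and the 3 WT TGFb+IL4 columns 41.2 to 41.6, whereas by heading every WT group mixes low and high columns.

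Levels were given as RPKM (reads per kilobase of gene, scaled to the mapped reads of the library). Total read numbers were not given, and relative depth, estimated from the value of a single read, ran from 0.794 to 1.66 times that of WT TGFb+IL4 replicate 3. Replicates correlated at r = 0.989 to 0.9974 over 9726 genes, with KO TGFb+IL4 replicate 2 standing apart at 0.989. All 8 CD4+ T cell markers examined were present, with a summed level of 1373 to 1843 RPKM. The 2 CD8 T cell markers summed to 14.3 to 36.3 RPKM and the 4 B cell markers to 7.89 to 33.3 RPKM. Summed levels were 1.05 to 20.3 RPKM for the 6 myeloid markers, 0.558 to 6.22 RPKM for the 3 NK cell markers and 0.0155 to 22 RPKM for the 3 erythroid markers, 1 of which was at 0 in all 24 libraries. Tgfbr1 itself, the TGF-β receptor kinase, had 3.02, 3.25 and 3.31 RPKM in WT control and 2.32, 2.55 and 3.05 RPKM in KO control. This difference did not pass the test (log2 fold change -0.21 ± 0.09 SE, limma adjusted p = 0.164), and a value over the whole gene does not check a deletion of part of it. With TGFb, Tgfbr1 stood at 13.9, 14 and 14.5 RPKM in WT and 2.37, 2.42 and 3.24 RPKM in KO cells.

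The genes were first placed in the mm9 genome with the GENCODE vM1 annotation. Socs1 lies on the minus strand at chr16:10783901-10785629, Socs2 on the minus strand at chr10:94847996-94879814, Socs3 on the minus strand at chr11:117827393-117831361 and Cish on the plus strand at chr9:107198357-107205115. Socs4 lies at chr14:47896606-47915773, Socs5 at chr17:87507019-87536923 and Socs7 at chr11:97223865-97259856, all on the plus strand. The non-coding transcripts Gm17040 and Gm17041 on the opposite strand overlap Cish, and since the libraries did not keep strand, their reads and those of Cish cannot be told apart.

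STAT dimers bind TTCNNNGAA, and STAT6, the factor downstream of IL-4, also binds the wider TTCNNNNGAA. These letters were searched in the DNase I-hypersensitive sites (DHSs) within 10 kb of the genes, together with the Smad-binding palindrome GTCTAGAC. Each pattern equals its reverse complement, so 1 pass covered both strands. Over their whole length, which differs between sites, 31 DHSs of 7 members were searched, those of Socs6 being left out. Of these 31, 10 DHSs of 4 members held TTCNNNGAA, namely those of Socs1, Socs2, Socs3 and Cish. The wider TTCNNNNGAA was in 4 of the 31 DHSs, of 3 members, namely Socs1, Cish and Socs5. The Socs5 match stood at -399 bases from the start of a gene whose RNA stayed flat. The stretches that follow were chosen from those that carry TTCNNNGAA beside the 4 members whose RNA changed, and not all are shown. Left out were the matches at -760 bases from the gene start of Socs2 and at 10733 bases from that of Socs1. Those of Cish at 10452, 11949 and 16994 bases from its gene start were also left out. Each stretch shown is 30 bases of the mm9 reference on the strand of the gene, with the matches in capitals.
Socs2, chr10:94879533-94879562: gcggaTTCCTGGAAagTTCCTGGAAagcgg
Cish first pair, chr9:107198985-107199014: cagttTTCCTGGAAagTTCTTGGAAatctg
Cish second pair, chr9:107199093-107199122: ggTTCTAGGAAgatgaggcTTCCGGGAAgg
Socs3, chr11:117830543-117830572: cggccgggcagTTCCAGGAAtcggggggcg
Socs3 upstream, chr11:117830816-117830845: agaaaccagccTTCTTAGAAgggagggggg
Socs3 downstream, chr11:117827039-117827068: gaggtgTTCCGAGAAaGTCTAGACtcgggg
Socs1, chr16:10786064-10786093: agctagccgggTTCCAAGAAgggtcgagat
The Socs2 stretch held 2 copies of the same TTCCTGGAA, 2 bases apart, in an intron of 1 of 15 annotated transcripts and 47 bases ahead of a transcript start. The first Cish pair had the same spacing of 2 bases and the second a spacing of 8 bases, and they ended 32 and 91 bases ahead of the next annotated transcript starts. The first pair lay in an untranslated exon stretch of 1 of 6 Cish transcripts and the second in one of 2. The first Socs3 match lay 53 bases before a transcript start. The downstream Socs3 match stood 1 base away from the only GTCTAGAC found in the 31 DHSs. The DHS holding both was called in WT control and KO control but in neither TGFb+IL4 library.

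The 3 other matches near the start of Socs1 had the wider spacing and stood at -558, -590 and -642 bases from the gene start, within the same DHS.
Socs1 wide 1, chr16:10786173-10786202: aggccaccgcTTCCTGGGAAgcccaagcca
Socs1 wide 2, chr16:10786205-10786234: cgccttaggcTTCCTTTGAAgcctctgcgg
Socs1 wide 3, chr16:10786257-10786286: cccgcccggtTTCCGAGGAActaggccggg
Matches of this kind were common in open chromatin. TTCNNNGAA lay within 100 bp of the summit in 6.21% to 7.3% of all DHSs of a library. In that same window it was in 3 of 28 member DHSs in WT control, 4 of 24 in WT TGFb+IL4, 4 of 26 in KO control and 2 of 22 in KO TGFb+IL4, Socs6 included, and these counts, not the 10 of 31, compare with those shares. TTCNNNGAA was also in 7.94% of promoters (250 bases before to 50 after the start of 22367 protein-coding genes). TTCNNNNGAA was in 6.55% of those promoters and GTCTAGAC in 0.174%. The promoter windows of the 8 members held 1 match in all, a TTCNNNNGAA of Cish. These windows lie at the outermost annotated start of each gene. The TTCNNNGAA shown above ahead of other transcript starts of Socs2, Socs3 and Cish therefore fall outside them. At least 2 TTCNNNGAA within 100 bp of a summit were rarer, at 0.303% to 0.404% of DHSs, and both the Socs2 and the Cish DHS had them in the WT libraries. In KO control the Cish DHS was the 1 site among 33665 with 4 such matches that close to its summit, and in KO TGFb+IL4 it was 1 of 2 among 27145. Around the summits called in WT control and WT TGFb+IL4 the same Cish DHS had 2 and 3 matches. The reference bases are the same for every library, so these counts depend on where the summit was called. A match in letters is a description and does not show that a factor was bound.

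Socs2 had the widest range of the 8 genes, 24.8 times from the lowest to the highest library, and followed TGFb in WT cells. Socs2 encodes a suppressor known for growth hormone receptor signalling that is also a STAT5 target in T cells. WT control libraries held 13.4, 11 and 11.2 RPKM and WT TGFb libraries 77.6, 76 and 78.2 RPKM. WT IL4 libraries were lower, at 6.73, 7.29 and 7.02 RPKM, and WT TGFb+IL4 libraries stood at 41.2, 41.2 and 41.6 RPKM. No library of these 4 groups fell inside the range of another group.

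In KO cells Socs2 was low in every culture. KO control held 6.76, 7.13 and 6.76 RPKM, KO TGFb 8.55, 8.14 and 8.03 RPKM, KO IL4 3.77, 3.82 and 3.15 RPKM, and KO TGFb+IL4 4.5, 4.7 and 4.86 RPKM. From highest to lowest mean the order was WT TGFb, WT TGFb+IL4, WT control, KO TGFb, WT IL4, KO control, KO TGFb+IL4 and KO IL4, and the only neighbours whose ranges overlapped were WT IL4 and KO control.

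TGFb raised Socs2 by 2.61 ± 0.07 (SE, n = 3 against 3) on the log2(RPKM + 1) scale in WT cells (limma adjusted p = 7.93e-07), and added to IL4 it raised Socs2 by 2.40 ± 0.05 (limma adjusted p = 1e-08). IL4 lowered it: the log2 fold change was -0.68 ± 0.08 against control (limma adjusted p = 0.00281) and -0.89 ± 0.04 when IL4 was added to TGFb (limma adjusted p = 2.63e-06). The first of these IL4 calls was lost on leaving out WT control replicate 1 or any 1 of the 3 WT IL4 libraries, with limma adjusted p from 0.0101 to 0.0192 and values from -0.65 to -0.70 without an IL4 library. In KO cells IL4 also lowered Socs2, by a log2 fold change of -0.79 ± 0.09 (limma adjusted p = 0.000601). The KO TGFb libraries were all above the KO control libraries, but the difference of 0.23 ± 0.07 did not pass (unadjusted p = 0.00784 in limma, adjusted p = 1). Against WT control, TGFb+IL4 raised Socs2 by 1.73 ± 0.07 (limma adjusted p = 4.72e-07), and in KO cells the same contrast gave -0.47 ± 0.08 (limma adjusted p = 0.0155). The myeloid markers moved with TGFb in WT cells, from a sum of 4.28 to 6.83 RPKM in control to 7.42 to 20.3 RPKM, and the NK cell markers from 2.33 to 2.53 RPKM to 0.558 to 0.802 RPKM. The CD8 markers summed to 16.6 to 17.3 RPKM with TGFb against 24.8 to 26.9 RPKM in control, and the B cell markers to 10.9 to 13.1 against 14.4 to 22.5 RPKM. The part of these cells in the Socs2 values was not tested.

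The difference between the genotypes in the TGFb response of Socs2 was tested directly and was -2.38 ± 0.09 on the log2 scale (limma adjusted p = 1.96e-08). For TGFb+IL4 it was -2.20 ± 0.10 (limma adjusted p = 1.09e-07). The IL4 response of Socs2 had a genotype difference of -0.11, with a 95% interval from -0.37 to 0.14. In WT cells the joint effect of both cytokines differed from the sum of the single log2 effects by -0.21 ± 0.09 (limma adjusted p = 0.154), which did not pass.

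**Figure D2:**
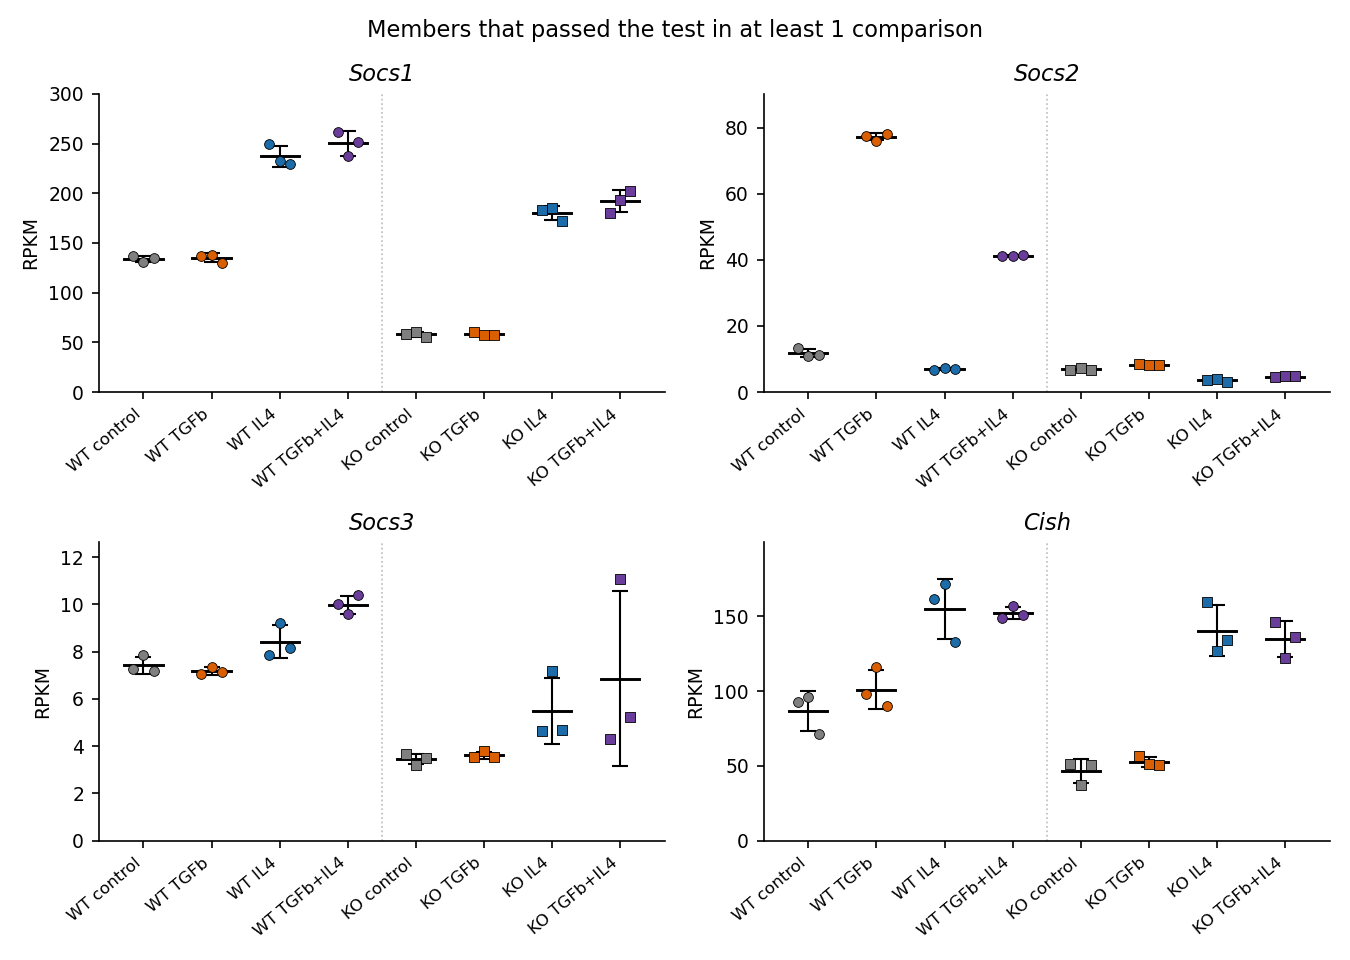
RPKM (vertical axis, from 0) of Socs1, Socs2, Socs3 and Cish in each of the 8 groups (horizontal axis), with circles for WT and squares for KO libraries, a bar for the group mean and whiskers for 1 SD of 3 libraries. Socs2 peaks at 76 to 78.2 RPKM in WT TGFb, and Socs1 and Cish are higher in the 2 IL4 cultures of each genotype than in the 2 cultures without IL4.

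Socs1 was the most abundant member, the RPKM scale being per length, and followed IL4. It encodes the suppressor that blocks Janus kinase activity directly. WT control libraries held 137, 131 and 135 RPKM, WT TGFb 137, 138 and 129.9 RPKM, WT IL4 249.7, 232 and 229.7 RPKM, and WT TGFb+IL4 262, 237 and 252 RPKM. The KO libraries lay at 58, 60.7 and 55.4 RPKM in control, 60.2, 57.1 and 57.6 RPKM with TGFb, 183, 185 and 172 RPKM with IL4, and 179.7, 193 and 202 RPKM with TGFb+IL4. The 8 groups thus fell into 4 levels, WT with IL4, KO with IL4, WT without IL4 and KO without IL4, and within each level the cultures with and without TGFb overlapped.

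IL4 raised Socs1 by 0.82 ± 0.05 on the log2 scale in WT (limma adjusted p = 9.29e-05) and by 1.61 ± 0.06 in KO cells (limma adjusted p = 1.32e-06). The IL4 response of Socs1 was larger in KO cells by 0.80 ± 0.07 (limma adjusted p = 0.000817). The IL4 response passed as different between genotypes for 4 of 9668 genes. Beside Socs1 these were Gata3, the Th2 transcription factor, with 1.06 ± 0.12 (limma adjusted p = 0.00326), Ralgds, a Ral exchange factor, with 1.19 ± 0.13 (limma adjusted p = 0.00326), and the glucose transporter family gene Slc2a6 with 1.20 ± 0.15 (limma adjusted p = 0.00532), and these 3 were named after their values were seen. For TGFb+IL4 the difference of Socs1 was 0.81 ± 0.08 (limma adjusted p = 4.46e-05).

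TGFb alone left Socs1 within the replicate spread: the log2 fold change was 0.01 in WT cells, with a 95% interval from -0.09 to 0.11, and 0.01 in KO cells, with an interval from -0.12 to 0.13. Added to IL4 in WT cells it gave 0.08, with an interval from -0.04 to 0.20. IL4 added to TGFb raised Socs1 by 0.89 ± 0.05 (limma adjusted p = 7.54e-06). Against control, TGFb+IL4 raised Socs1 by 0.89 ± 0.05 in WT (limma adjusted p = 2.47e-06) and by 1.70 ± 0.07 in KO cells (limma adjusted p = 8.98e-06). The CD4+ T cell markers summed to 1492 to 1529 RPKM in WT IL4 and 1786 to 1843 RPKM in WT TGFb+IL4, against 1670.3 to 1774 RPKM in WT control. In KO cells they summed to 1373 to 1500.2 RPKM with IL4 and 1406 to 1548 RPKM with TGFb+IL4, against 1730.0 to 1803 RPKM in control. With IL4 the CD8 markers summed to 29.9 to 36.3 RPKM in WT and 26.3 to 27.2 RPKM in KO cells, against 24.8 to 26.9 and 14.8 to 16.7 RPKM in the controls. The NK cell markers summed to 3.74 to 6.22 RPKM in WT and 2.88 to 4.33 RPKM in KO cells with IL4, against 2.33 to 2.53 and 1.8 to 2.16 RPKM, and the B cell markers of KO cells to 11.9 to 13.5 against 9.07 to 10.5 RPKM. The part of these marker differences in the Socs1 and Cish values was not tested.

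Cish, named for its SH2 domain and known as a STAT5-induced inhibitor that dampens IL-2 and T cell receptor signals, had much the same pattern with a wider spread. WT control held 92.7, 96.4 and 71.6 RPKM, WT TGFb 98.4, 116 and 90.1 RPKM, WT IL4 162, 172 and 133 RPKM, and WT TGFb+IL4 149, 157 and 151 RPKM. KO control held 51.3, 37.3 and 50.8 RPKM, KO TGFb 56.6, 50.9 and 50.6 RPKM, KO IL4 160.0, 127 and 134 RPKM, and KO TGFb+IL4 146, 122 and 136 RPKM. The 4 groups with IL4 formed a chain in which each overlapped the next, and all their libraries lay above all libraries without IL4.

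IL4 raised Cish by 0.84 ± 0.13 on the log2 scale in WT (limma adjusted p = 0.00791) and by 1.58 ± 0.13 in KO cells (limma adjusted p = 8.58e-05). The difference of 0.75 ± 0.20 between these responses did not pass (limma adjusted p = 0.257), nor did that of 0.71 ± 0.18 for TGFb+IL4 (limma adjusted p = 0.0215). The latter passed with all 24 libraries in 1 fit (adjusted p = 0.00843) and without WT control replicate 3 (adjusted p = 0.00618), in limma in both cases. The IL4 call of Cish in WT cells was lost without WT control replicate 1, WT IL4 replicate 1 or WT IL4 replicate 2, with limma adjusted p from 0.0313 to 0.0409. Addition of IL4 to TGFb raised Cish by 0.59 ± 0.08 (limma adjusted p = 0.00118), close to the fold threshold of 1.5, and its fold fell under that threshold without WT TGFb replicate 1, WT TGFb replicate 3 or WT TGFb+IL4 replicate 2, with log2 values of 0.51 to 0.57. TGFb alone gave 0.22 ± 0.13 in WT cells (limma adjusted p = 0.275). Against control, TGFb+IL4 raised Cish by 0.81 ± 0.10 in WT (limma adjusted p = 0.00021) and by 1.53 ± 0.13 in KO cells (limma adjusted p = 0.000365).

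Socs3, the suppressor that binds gp130, changed less with cytokines in WT cells. WT control held 7.27, 7.84 and 7.19 RPKM, WT TGFb 7.06, 7.37 and 7.14 RPKM, WT IL4 7.88, 9.2 and 8.17 RPKM, and WT TGFb+IL4 10, 9.58 and 10.4 RPKM. The WT TGFb+IL4 libraries lay above all other WT libraries. The log2 fold change was 0.38 ± 0.07 against control (limma adjusted p = 0.00162) and 0.42 ± 0.06 against TGFb (limma adjusted p = 0.00221), both under the 1.5-fold threshold.

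In KO cells Socs3 held 3.66, 3.22 and 3.5 RPKM in control, 3.53, 3.79 and 3.54 RPKM with TGFb, 4.65, 7.17 and 4.69 RPKM with IL4, and 4.31, 11.1 and 5.22 RPKM with TGFb+IL4. Replicate 2 was far above its group in both IL4 cultures. Against KO control the log2 fold change of Socs3 was 0.52 ± 0.14 with IL4 (limma adjusted p = 0.0589). For TGFb+IL4 it was 0.72 ± 0.27 (limma adjusted p = 0.243), and neither passed. With TGFb+IL4 the genotypes overlapped, and the difference of -0.58 ± 0.27 did not pass (limma adjusted p = 0.133), whereas without KO TGFb+IL4 replicate 2 it was -0.93 (limma adjusted p = 5.94e-05). With IL4 the difference was -0.55 ± 0.14 (limma adjusted p = 0.0313), and without KO IL4 replicate 2 it was -0.73 (limma adjusted p = 0.00178). In KO TGFb+IL4 replicate 2 the B cell markers summed to 26 RPKM against 14.8 and 24.9 in its group mates, and the NK cell markers to 4.89 against 3.61 and 3.22, and their part in the Socs3 value was not tested.

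All 4 of these genes were lower in KO than in WT cells without added cytokine. The log2 fold changes were -1.19 ± 0.05 for Socs1 (limma adjusted p = 1.21e-05), -0.92 ± 0.07 for Socs3 (limma adjusted p = 0.000195), -0.89 ± 0.15 for Cish (limma adjusted p = 0.00652) and -0.70 ± 0.08 for Socs2 (limma adjusted p = 0.00159). In RPKM, WT control exceeded KO control 2.31 times for Socs1, 2.15 times for Socs3, 1.87 times for Cish and 1.72 times for Socs2, and no WT library overlapped a KO library. The Cish call was lost without WT control replicate 1 or 2 or without any 1 of the 3 KO control libraries, with limma adjusted p from 0.0145 to 0.0372. Markers of other cells moved with this contrast: the B cell markers summed to 14.4 to 22.5 RPKM in WT control and 9.07 to 10.5 RPKM in KO control, the CD8 markers to 24.8 to 26.9 and 14.8 to 16.7 RPKM, and the myeloid markers to 4.28 to 6.83 and 1.05 to 2.45 RPKM. The NK cell markers summed to 2.33 to 2.53 RPKM and 1.8 to 2.16 RPKM, and the erythroid markers to 0.152 to 22 and 0.0155 to 0.0702 RPKM. Their part in the results was not tested, and in bulk samples fewer cells of a type and less RNA per cell cannot be told apart.

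With TGFb the genotypes differed in the same 4 genes, by a log2 fold change of -3.08 ± 0.05 for Socs2 (limma adjusted p = 4.85e-09), -1.20 ± 0.05 for Socs1 (limma adjusted p = 3.79e-07), -0.93 ± 0.09 for Cish (limma adjusted p = 8.61e-05) and -0.83 ± 0.07 for Socs3 (limma adjusted p = 3.02e-05). In the IL4 cultures Socs2 was still lower in KO cells, by -0.81 ± 0.09 with IL4 (limma adjusted p = 0.000368) and by -2.90 ± 0.06 with TGFb+IL4 (limma adjusted p = 2.1e-07). Socs1 differed by -0.40 ± 0.05 with IL4 (limma adjusted p = 0.0015) and -0.38 ± 0.06 with TGFb+IL4 (limma adjusted p = 0.00295), both under 1.5-fold. Cish differed by -0.14 with IL4, with a 95% interval from -0.38 to 0.09, and by -0.18 with TGFb+IL4, with an interval from -0.34 to -0.01.

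**Figure D3:**
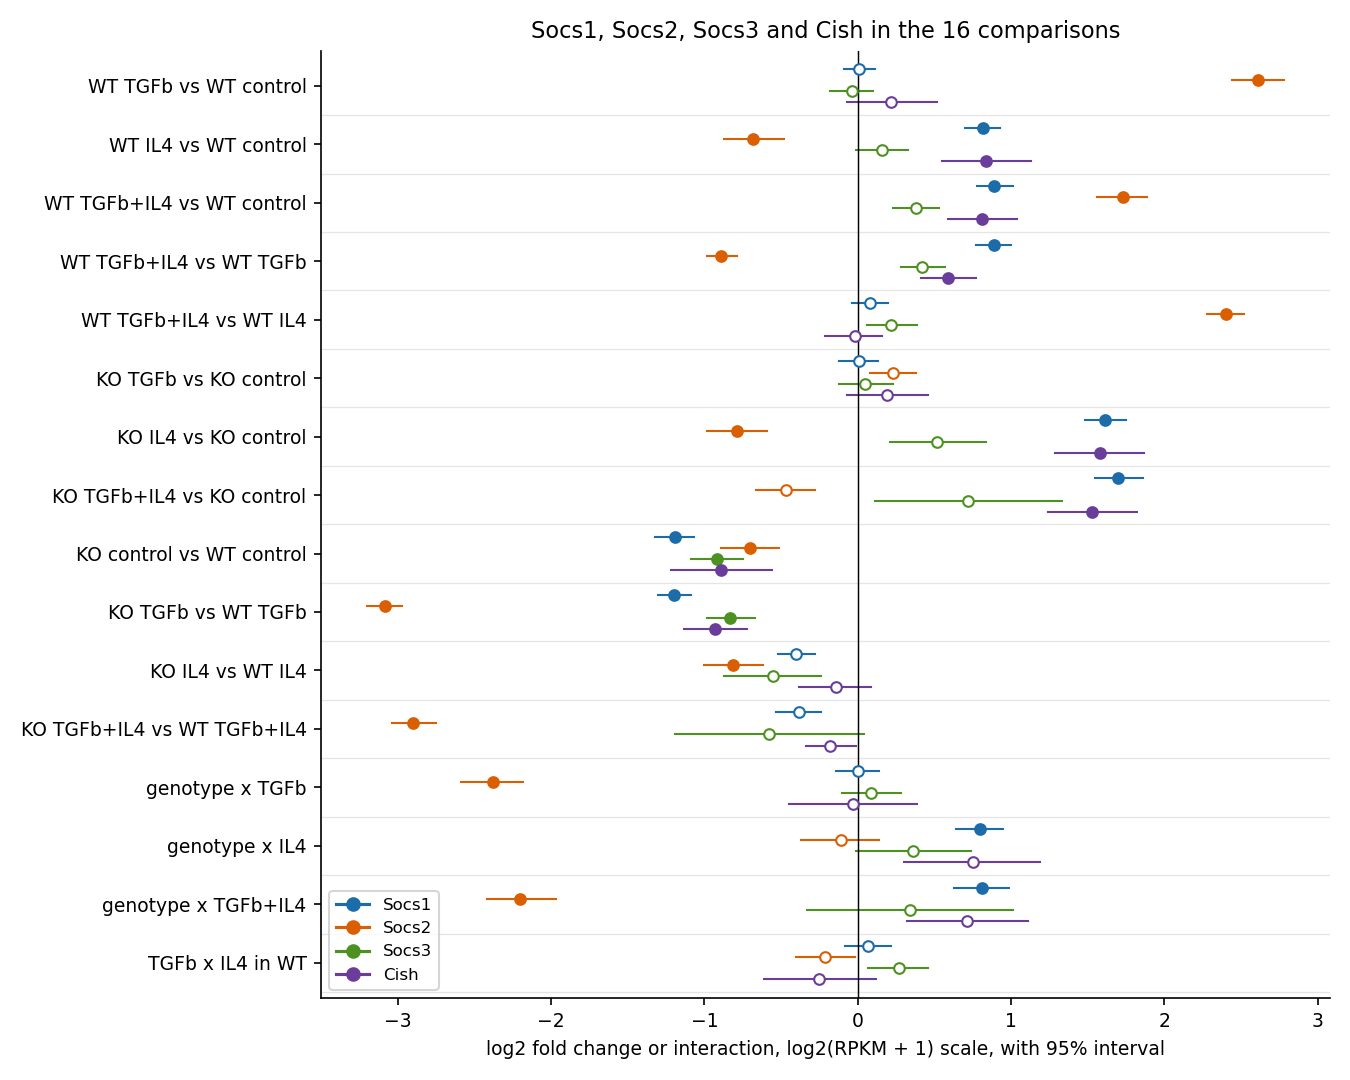
Log2 fold change, or difference of log2 fold changes for the rows with an x, of Socs1, Socs2, Socs3 and Cish on the log2(RPKM + 1) scale (horizontal axis) in the 16 comparisons (vertical axis), with 95% intervals from limma; filled points passed an adjusted p of 0.01 and a fold of 1.5. Socs2 stands at 2.61 for TGFb in WT and -3.08 for KO against WT with TGFb, and the genotype by IL4 row is filled for Socs1 alone.

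The other 4 members were expressed but stayed flat. Socs4, Socs5 and Socs6 belong to the longer SOCS proteins, for which links to growth factor receptors are known, and Socs7 is known to bind adaptor proteins. Socs4 ran from 4.56 to 6.56 RPKM over the 24 libraries with a median of 5.98, Socs5 from 2.07 to 2.86 with a median of 2.48, Socs6 from 3.65 to 5.38 with a median of 4.64, and Socs7 from 0.818 to 1.3 with a median of 1.01. For each of these 4 genes the highest library was at most 1.59 times the lowest, against 3.43 times for Socs3, 4.59 times for Cish and 4.72 times for Socs1.

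None of the 4 passed in any comparison in which it was tested. Their log2 fold changes lay between -0.23 and 0.18 for Socs4, -0.12 and 0.19 for Socs5, and -0.13 and 0.12 for Socs6 in 16 comparisons each. Socs7 was at the minimum mean of 1 RPKM and entered 8 of the 16 comparisons, with log2 values between -0.11 and 0.17. The nearest to a difference was Socs5 on adding IL4 to TGFb in WT cells, from 2.07, 2.17 and 2.15 to 2.57, 2.53 and 2.58 RPKM, with a log2 fold change of 0.18 (unadjusted p = 0.0311 in limma, adjusted p = 0.102). Its libraries did not overlap between these 2 groups.

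**Figure D4:**
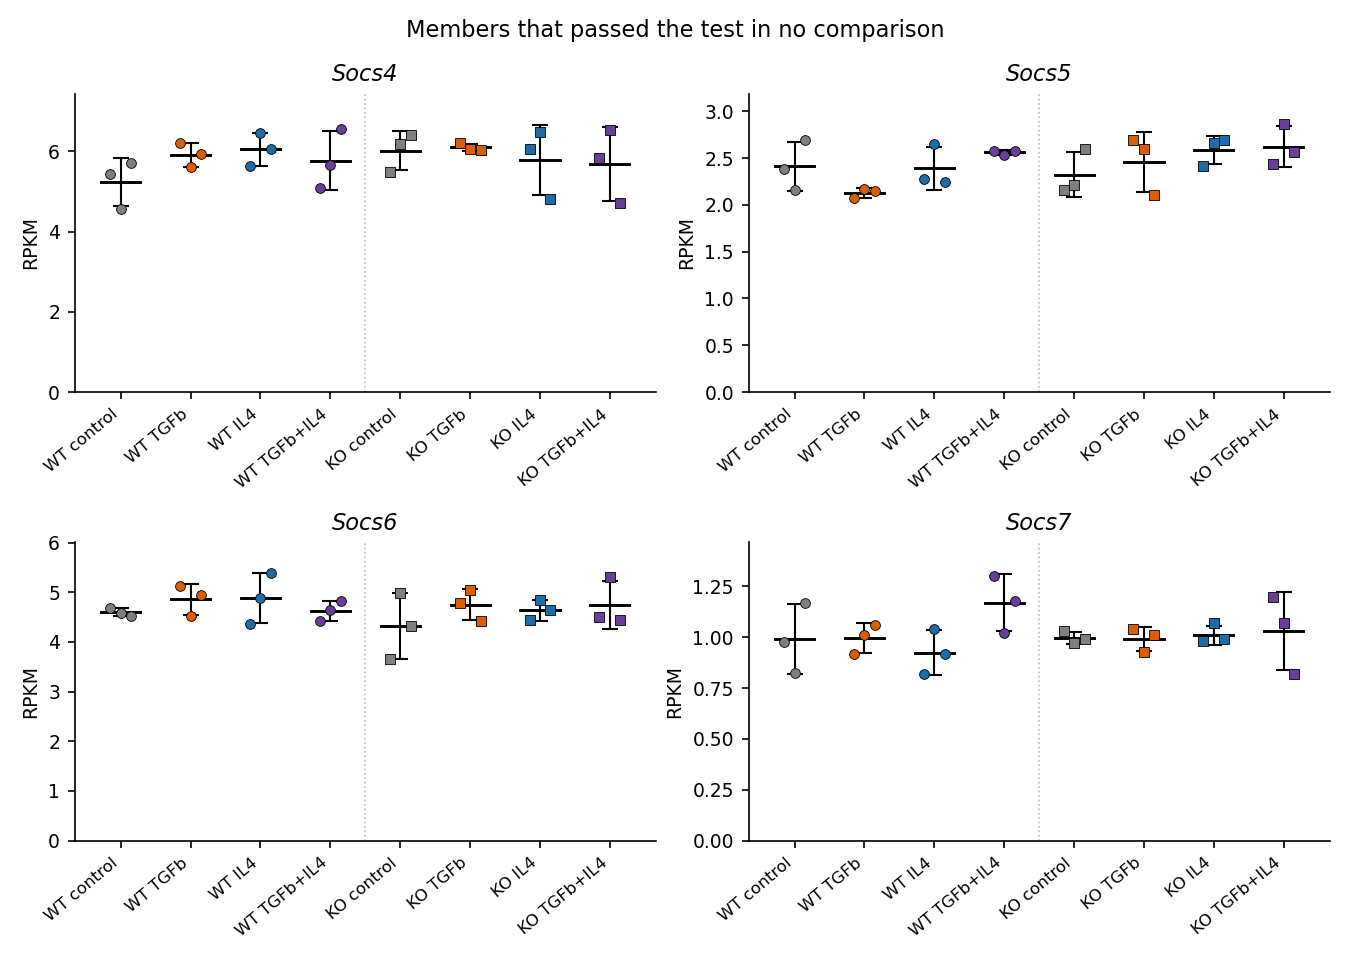
RPKM (vertical axis, from 0) of Socs4, Socs5, Socs6 and Socs7 in the 8 groups (horizontal axis), with circles for WT and squares for KO libraries, a bar for the group mean and whiskers for 1 SD of 3 libraries. Socs4 stays between 4.56 and 6.56 RPKM and Socs7 between 0.818 and 1.3 RPKM in all 24 libraries.

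Counts of members that passed were read against the share of all tested genes that passed the same 2 thresholds. With TGFb in WT cells 1 of 7 tested members passed and 5.71% of all genes. With IL4 in WT cells 3 of 7 passed against 1.29% of genes, and with TGFb+IL4 against control 3 of 8 passed against 9.27%. Adding IL4 to TGFb changed 3 of 8 members and 3.03% of genes, and adding TGFb to IL4 changed 1 of 8 and 9.28%. In KO cells TGFb changed no member and 0.0105% of genes, which was 1 gene, Foxp3, the regulatory T cell factor, named after its values were seen (log2 fold change 1.09 ± 0.09, limma adjusted p = 0.00892). This call was lost on leaving out any 1 of the 6 libraries, without the filter and after median-ratio scaling. In limma 246 of the 9563 genes of that comparison had an unadjusted p below 0.05. IL4 changed 3 of 8 members and 2.51% of genes in KO cells, and TGFb+IL4 2 of 8 and 1.92%.

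Between genotypes 4 of 7 members and 2.46% of genes passed in control, and 4 of 7 and 9.68% with TGFb. With IL4 the figures were 1 of 7 members and 2.99%, and with TGFb+IL4 1 of 8 and 8.44%. The response to TGFb differed between genotypes for 1 of 7 members and 4.71% of genes, the response to IL4 for 1 of 7 and 0.0414%, and the response to TGFb+IL4 for 2 of 8 and 4.18%. For a deviation from additive log2 effects of TGFb and IL4 in WT cells no member passed, against 1.77% of genes. The nearest was Socs3, with a deviation of 0.27 ± 0.09 (unadjusted p = 0.0122 in limma, adjusted p = 0.0793). Socs2 came next, at -0.21 ± 0.09 (unadjusted p = 0.0363 in limma, adjusted p = 0.154). Additive effects are thus not shown for these genes. Several of these comparisons share control libraries.

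The genes with the most similar pattern to each member were taken by Pearson correlation of log2(RPKM + 1) over the 24 libraries among 9725 genes. The libraries share the same 8 groups, so these values describe group patterns and carry no test. For Socs2 they were Foxp3 at 0.989, the chemokine receptor Ccr6 at 0.986 and Angptl2 at 0.985. For Socs1 they were Ube2l6, an ISG15-conjugating enzyme, at 0.983, Hemk1 at 0.969 and Slc2a6 at 0.967. For Cish they were Socs1 itself at 0.959, Hemk1 at 0.956 and Slc2a6 at 0.949, so that Hemk1 and Slc2a6 stood in both lists.

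For Socs3 the nearest genes were the interferon regulatory factor Irf7 at 0.951, Lgals3bp at 0.945 and the myeloid and NK cell adaptor Tyrobp at 0.941. Among the members, Socs1 and Cish correlated at 0.96, Socs1 and Socs3 at 0.81, Socs3 and Cish at 0.71, and Socs1 and Socs2 at 0.14. The flat members had weaker neighbours: the highest correlation was 0.825 for Socs4 with Trim59, 0.718 for Socs5 with Gm16675, 0.696 for Socs6 with Brpf1 and 0.847 for Socs7 with Spg7. Next came Cmpk1 and Erp44 for Socs4, Wdr26 and Trappc2 for Socs5, Erlin1 and Acat3 for Socs6, and Nipbl and Rsbn1l for Socs7.

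The other components of the pathway were described from lists of receptors, kinases, STAT factors, other inhibitors, ligase genes, STAT targets and ligands, each by its counts and its median log2 fold change. Over all tested genes that median lay between -0.01 and 0.03 in the 16 comparisons. Of all genes 3.42% rose and 2.28% fell with TGFb in WT cells, 0.93% and 0.362% with IL4, and 6.43% and 2.84% with TGFb+IL4. Adding IL4 to TGFb raised 2.53% and lowered 0.508%, adding TGFb to IL4 raised 6.06% and lowered 3.21%, and in KO cells TGFb+IL4 raised 1.27% and lowered 0.642%. The list of genes for the ubiquitin ligase that the SOCS box recruits was the least variable. It held Tceb1, Tceb2, Cul5, Cul2, Rnf7, Rbx1, Ube2f and Nedd8, not all of which bind the SOCS box. Of these 8 genes 0 passed in any of the 16 comparisons, and their median log2 fold change was -0.03 with TGFb and -0.08 with TGFb+IL4 in WT cells. Of the 4 Janus kinases 0 passed in any cytokine comparison, and Jak3, which pairs with the common γ chain, was lower in KO than in WT control (-0.61, limma adjusted p = 0.000897) and in KO than in WT TGFb+IL4 (-0.64, limma adjusted p = 0.000678), comparisons chosen after their values were seen.

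Of the 7 STAT genes, 1 rose and 1 fell with TGFb in WT cells (list median 0.25), 0 passed with IL4 (-0.22), and 3 rose and 1 fell with TGFb+IL4 (0.44). Stat5b, a driver of Cish and Socs2 in other settings, rose by 0.72 with TGFb (limma adjusted p = 8.13e-05) and by 1.08 with TGFb+IL4 (limma adjusted p = 6.51e-07). Stat5a rose by 1.12 with TGFb+IL4 (limma adjusted p = 9.34e-07) and Stat2 by 1.03 (limma adjusted p = 4.03e-05). Stat4, the IL-12 factor, had log2 fold changes of -2.12 with TGFb (limma adjusted p = 7.91e-06) and -1.32 with TGFb+IL4 (limma adjusted p = 7.79e-06). On adding IL4 to TGFb 3 STAT genes rose and 0 fell, and on adding TGFb to IL4 4 rose and 1 fell. In KO cells TGFb+IL4 raised 2, Stat5a by 0.84 (limma adjusted p = 0.000202) and Stat5b by 0.70 (limma adjusted p = 0.00109).

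Of 23 receptor genes 20 were tested with TGFb in WT cells, where 1 rose and 4 fell (list median 0.07), led by Il10ra at -1.31 (limma adjusted p = 3.42e-05) and Il12rb2 at -1.11 (limma adjusted p = 4.23e-05). With IL4 0 of 20 passed. With TGFb+IL4 5 of 19 rose and 3 fell (list median 0.30). Il4ra, the IL-4 receptor chain on which Socs1 acts, rose by 0.88 (limma adjusted p = 2.65e-06), and Il6ra by 1.35 (limma adjusted p = 5.77e-07). Il4ra was the 1 receptor that rose when IL4 was added to TGFb, by 0.80 (limma adjusted p = 1.2e-05). Adding TGFb to IL4 raised 4 of 19 and lowered 1. In KO cells TGFb+IL4 raised 2 of 19, Il4ra by 1.24 (limma adjusted p = 0.00165) and Ifngr2 by 0.79 (limma adjusted p = 0.00228).

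The 13 other inhibitors of the pathway, which include PIAS proteins and phosphatases, seldom passed, and their list median stayed between -0.08 and 0.14 in the cytokine comparisons named here. In WT cells Cblb, a ubiquitin ligase that restrains T cell activation, had a log2 fold change of -0.86 with TGFb (limma adjusted p = 4.63e-05). With IL4, with TGFb+IL4 and on adding TGFb to IL4, 0 of 13 passed. Adding IL4 to TGFb raised 2, Cblb and Usp18, the interferon-induced ISG15 protease, both by 0.64 (limma adjusted p = 0.000893 and 0.000791). In KO cells TGFb+IL4 raised 1, Usp18 by 1.18 (limma adjusted p = 0.00769).

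Of 18 STAT target genes, 4 rose and 1 fell with IL4 in WT cells (list median 0.10), among them Gata3 at 1.72 (limma adjusted p = 3.4e-05), Nfil3 at 1.05 (limma adjusted p = 0.000266) and Lta at -1.11 (limma adjusted p = 7.39e-05). With TGFb 1 of 17 rose and 3 fell, with TGFb+IL4 4 rose and 2 fell, on adding IL4 to TGFb 5 rose and 1 fell, and on adding TGFb to IL4 3 of 18 rose and 3 fell. In KO cells TGFb+IL4 raised 4 of 17 and lowered 1, with Gata3 at 2.82 (limma adjusted p = 8.65e-06). Of the 14 cytokine ligands 7 were tested with TGFb in WT cells, where 1 rose and 5 fell (list median -1.51), with Il2, whose receptor drives STAT5, at -2.64 (limma adjusted p = 7.38e-07). With IL4 2 of 8 rose, Il2 at 0.67 (limma adjusted p = 0.00103) and Csf2 at 0.66 (limma adjusted p = 0.00498). With TGFb+IL4 1 of 7 rose and 4 fell. Adding IL4 to TGFb raised 2 of 7, adding TGFb to IL4 raised 1 of 9 and lowered 5, and in KO cells 0 of 6 passed with TGFb+IL4.

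The TGF-β target and feedback genes were set beside the TGFb response of Socs2. Of the 11, 7 were tested with TGFb in WT cells and 6 rose (list median 1.01). Itgae, an integrin chain, stood at 2.06 (limma adjusted p = 3.47e-06) and Ldlrad4 at 1.89 (limma adjusted p = 1.88e-05). Both were below the 2.61 of Socs2, on a scale that understates changes of low genes. Only 5 of the 11 were tested with IL4 in WT cells and 3 with TGFb in KO cells. A gene can enter a fit through its high TGFb libraries alone, so the counts of rising genes may be partly set by the filter. With TGFb+IL4 6 of 7 rose and on adding TGFb to IL4 6 of 8 rose. With IL4 0 of 5 passed. Adding IL4 to TGFb raised 1 of 8, Itgae by 0.80 (limma adjusted p = 0.000593), while Socs2 fell. In KO cells 0 of the 3 tested passed with TGFb+IL4.

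DHSs were called by the authors in each DNase-seq library alone, so with 1 library per condition the lists were compared without a test. The lists held 44298 DHSs in WT control, 33880 in WT TGFb+IL4, 33665 in KO control and 27145 in KO TGFb+IL4, and a shorter list has fewer sites at any locus. Within 10 kb of the 8 genes 34 merged sites were found, 28 in WT control, 24 in WT TGFb+IL4, 26 in KO control and 21 in KO TGFb+IL4, and 18 were in all 4 lists. A DHS within 1 kb of the annotated gene start was present for 7 of 8 members in WT control, WT TGFb+IL4 and KO control and for 6 in KO TGFb+IL4, against 47.8%, 46.2%, 46.2% and 44.1% of 22367 protein-coding genes. Those shares take in genes without RNA here, whereas all 8 members were expressed, and the share among expressed genes was not computed. Socs6 had no DHS within 1 kb of its gene start, that start being the outermost of its transcript starts. Its DHS in all 4 lists lay 33095 bp into the gene, at an exon. Several Socs6 transcripts, protein-coding ones among them, start within that DHS.

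Cish had the most sites, 9, of which 6 were in all 4 lists and 1 was cut by the edge of the 10 kb window. The DHS with the 2 motif pairs, chr9:107198750-107199282, had a fold enrichment of 6.7 in WT control, 5.61 in WT TGFb+IL4, 4.66 in KO control and 4.68 in KO TGFb+IL4. Socs1 had 4 sites, and the DHS over its start, chr16:10785096-10786306, had a fold enrichment of 4.21 in WT control, 3.33 in WT TGFb+IL4, 3.56 in KO control and 3.72 in KO TGFb+IL4. Socs3 had 4 sites with 3 in all lists, of which the strongest, 6441 bp beyond the gene start, had 8.82, 7.67, 5.98 and 6.03 in the same order. Fold enrichment is relative to each library's own local background, and its differences here have no replicate error.

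Socs2 had 2 sites and was the only member with no DHS in 1 of the lists. The DHS with the TTCCTGGAA pair, chr10:94879183-94879819, had a fold enrichment of 4.71 in WT control, 4.18 in WT TGFb+IL4 and 3.69 in KO control, and was not called in KO TGFb+IL4, the shortest list. It was a weak DHS in each library, at 68.6%, 69.6% and 84.3% of the way down the list by p-value. Its RNA in the matching groups was 11.8 ± 1.3, 41.3 ± 0.23, 6.88 ± 0.21 and 4.69 ± 0.18 RPKM (SD, n = 3). The second site was called in WT control alone, with a fold enrichment of 4.46, in an intron of 5730420D15Rik.

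**Figure D5:**
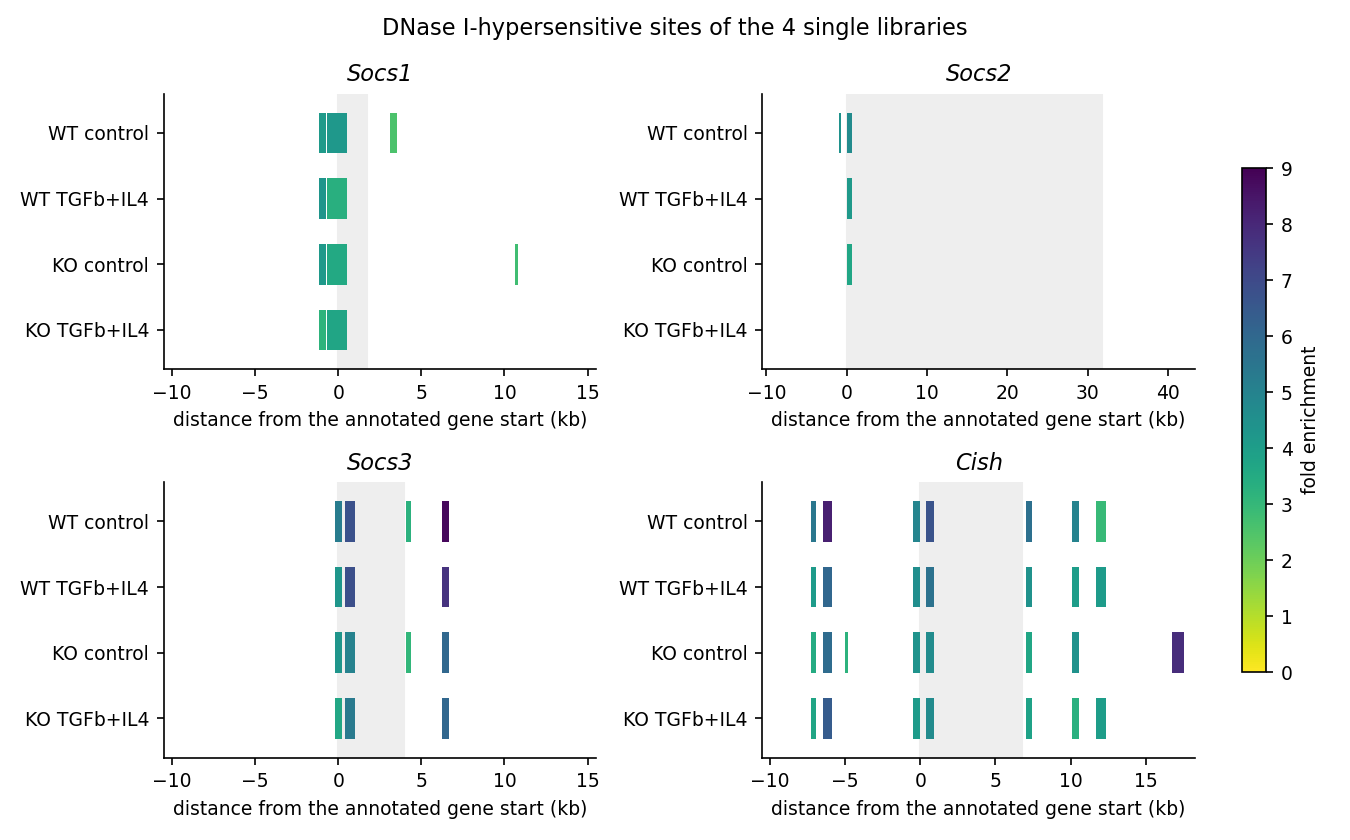
Merged DHSs of Socs1, Socs2, Socs3 and Cish drawn at their distance from the annotated gene start in kb (horizontal axis, positive in the direction of transcription) for the 4 DNase-seq libraries (vertical axis), coloured by fold enrichment, with the gene body shaded. Of the 9 Cish sites 6 recur in all 4 libraries, and the Socs2 row of KO TGFb+IL4 is empty.

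Of the flat members, Socs4, Socs5 and Socs7 had a DHS near the gene start, and Socs6 had one over other annotated transcript starts. Socs4 shares its start region with Wdhd1, and the DHS there had a fold enrichment of 11.3, 10.9, 10 and 10.9 in the 4 libraries in the same order. Socs5 had 10.3, 10.1, 8.43 and 8.18 at a site 305 bp before its start, and Socs7 had 8.91, 8.78, 6.47 and 5.38 at a site 344 bp before its start. In WT control these 3 values exceeded the 4.21 and 4.71 at the starts of Socs1 and Socs2.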

How the data were processed

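RNA-seq and DNase-seq of activated mouse CD4+ T cells were used. Bowtie2 placed the reads on mm9. After poorly placed and duplicate reads had been discarded, the authors computed RPKM per gene with edgeR, and these were deposited. The authors called DHSs with MACS in each DNase-seq library and deposited for each peak the fold enrichment (a ratio), the −log10 p-value and the −log10 q-value. Versions were not given in the sources used here. Read totals are unknown, so no counting interval is given.

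Columns were read by position, as the report explains. RPKM are not counts, so log2(RPKM + 1) was tested with limma 3.58.1 (trend, R 4.3.3) on genes with a mean of at least 1 RPKM over the libraries compared. Only the groups of a comparison entered its fit. A call needed a Benjamini-Hochberg adjusted p under 0.01 over all tested genes and a fold above 1.5. Fold changes on this scale understate those of low genes. The procedure was tested on simulated data. Named genes were all 8 members, the 3 genes most correlated with each, and those of the pathway lists that passed with the largest change. Genes outside this rule are stated as such. DHSs were merged over libraries within 10 kb of a gene. The members and lists were chosen with earlier results of these data known.

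Alternatives were a pseudocount of 0.1, no filter, median-ratio scaling, all 24 libraries in 1 fit, a replicate block, the columns as headed, the 8 libraries identified by read counts, leaving out each library, and for DHSs a 500 bp window and a −log10 q of at least 5. Read counts of the study's supplement served only to identify columns.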

Additional observations from a re-analysis of the deposited data

Results flagged for a closer look

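The responses of 2 members differed between WT and KO cells by a test of the difference itself. For Socs2 the TGFb response differed by -2.38 and the TGFb+IL4 response by -2.20 on the log2(RPKM + 1) scale, lower in KO cells (limma adjusted p = 1.96e-08 and 1.09e-07). For Socs1 the IL4 response differed by 0.80 and the TGFb+IL4 response by 0.81, the rise being larger in KO cells (limma adjusted p = 0.000817 and 4.46e-05). The Socs1 level itself was lower in KO than in WT cells. Means were 58 against 134 RPKM in control, 180 against 237 with IL4 and 192 against 250 with TGFb+IL4. The 2 contrasts of each gene share control libraries.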

How the results depend on the processing

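No result changed its direction under an alternative that kept the reading by position, and the 30 member calls all held with a pseudocount of 0.1 and with all 24 libraries in 1 fit. Calls held for 26 without a filter, 28 with median-ratio scaling, 27 with the replicate block, and 9 of 11 in the 8 identified WT libraries. The calls lost were Socs2 and Cish with IL4 in WT (no filter, limma adjusted p = 0.0168 and 0.0425; the 8 libraries, 0.0146 and 0.0279), Cish with IL4 in WT after median-ratio scaling (0.013), Cish for IL4 added to TGFb (0.0116 without a filter, log2 value 0.56 under the fold threshold after scaling) and Cish in KO against WT control without a filter (0.0322). Counts of genes called changed by over 1.5 times as follows. With the columns as headed 0 genes passed in 15 comparisons and 7 in KO against WT control. Without a filter the counts were 83 for WT IL4, 194 for IL4 added to TGFb, 0 for KO TGFb, 154 for KO IL4, 99 for KO TGFb+IL4, 149 for KO against WT with IL4, 1 for genotype by IL4 and 106 for TGFb by IL4. In the 8 identified libraries they were 73, 452 and 91 for WT IL4, IL4 added to TGFb and TGFb by IL4. Median-ratio scaling gave 0 for KO TGFb. All 24 libraries in 1 fit gave 6 for KO TGFb, 278 for KO TGFb+IL4 and 11 for genotype by IL4. The replicate block gave 2 for KO TGFb and 88 for KO TGFb+IL4. The cause was not tested. Leaving out each library gave 500 to 568 genes for WT TGFb, 73 to 120 for WT IL4, 858 to 1001 for WT TGFb+IL4, 229 to 443 for IL4 added to TGFb, 851 to 974 for TGFb added to IL4, 0 to 0 for KO TGFb, 165 to 276 for KO IL4 and 81 to 235 for KO TGFb+IL4. For KO against WT it gave 161 to 230 in control, 868 to 945 with TGFb, 201 to 285 with IL4 and 626 to 1116 with TGFb+IL4, and for the differences of responses 412 to 448 (TGFb), 1 to 6 (IL4), 313 to 681 (TGFb+IL4) and 107 to 186 (TGFb by IL4). The number of members with a promoter DHS did not change under either DHS alternative, while fewer peaks were counted for single members.

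The labels do not say that equal replicate numbers mark the same mouse. Deviations from group means correlated at -0.09 to 0.55 between WT libraries of the same number, with 8 of 18 pairs over 0.1, and at -0.29 to 0.41 between KO libraries, with 10 of 18 over 0.1, and 18 of 24 libraries were most alike one of their own number. With the replicate block the lost calls were Socs2 with IL4 in WT (limma adjusted p = 0.0153) and Socs2 and Cish in KO against WT control (limma adjusted p = 0.0119 and 0.0305).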
